A study of Mus musculus with 33 samples.

Results

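Caseins and whey proteins are the main proteins of milk, and their 7 genes in the mouse were followed here across a study of the transcription factor gene Trps1 in the mammary gland. The genes are the caseins Csn1s1, Csn1s2a, Csn1s2b, Csn2 and Csn3 and the whey proteins Lalba and Wap, taken by symbol from the deposited expression tables. All 7 were among 24186 rows of the organoid table and among 26230 rows each of the tumor table and the trichostatin A table. The table of the guide RNA experiment had rows for 4 of them (Csn1s1, Csn1s2a, Csn2 and Wap) among 22853 rows, and the other 3 were not analysed there.

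The alpha, beta and related caseins bind calcium phosphate and assemble into micelles, which kappa-casein, the product of Csn3, caps and keeps in suspension. Lalba encodes alpha-lactalbumin, the regulatory subunit of lactose synthase, and Wap encodes whey acidic protein, whose promoter is widely used to drive transgenes in milk-producing cells. Secretory alveolar cells switch these genes on in pregnancy and lactation, when prolactin acts through Jak2 and Stat5 together with glucocorticoids and with contacts between cells and their matrix. They are therefore used as markers of secretory differentiation of the mammary epithelium.

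RNA-seq was done on mouse mammary organoids, mammary tumors and HC11 cells, a mouse mammary epithelial cell line. All organoids were exposed to an adenovirus that carries Cre (AdCre), so the floxed alleles (F) were open to deletion in every group, and were harvested after 28 or 14 days in Matrigel, with 2 libraries per genotype and day. Their genotypes were Cdh1F/F;Trps1F/F, Cdh1+/F;Trps1F/F and, as the Trps1 wild type, Cdh1F/F;Trps1+/+. All 3 carry at least 1 floxed allele of Cdh1, the E-cadherin gene, so a difference between the last pair joins a change of Trps1 genotype with a change of Cdh1 genotype. The tumors were WAP-cre;Cdh1F/F;Trps1F/F, with 8 tumors of 6 mice, or WAP-cre;Cdh1F/F;Trps1+/+, with 3 tumors of 3 mice. The Cre of these mice is driven by regulatory sequence of Wap, itself a gene of this set, and the labels give no ages. The labels put the Trps1F/F tumors in subgroup 1 (4 tumors of 3 mice), subgroup 2 (2 tumors of 2 mice) or subgroup 3 (2 tumors of 2 mice), and mouse 18LCO025 gave 2 tumors of subgroup 1 and 1 of subgroup 3. The labels do not say how the subgroups were drawn. HC11 cells were kept for 24 h in 300 nM of the histone deacetylase inhibitor trichostatin A (TSA) or in DMSO, with 3 libraries each, or carried 1 guide per arm, sgTrps1 or the scrambled sgScr, with 2 libraries each. Nothing in the labels says that libraries of a group came from separate cultures, so p-values of organoids and cells measure a spread that may be technical.

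Libraries held 14833245 to 30305818 reads in organoids, 18304633 to 24192323 in tumors, 17788566 to 25585997 in the TSA experiment and 21346514 to 38708003 in the guide experiment. Trps1 itself was at log2 values of 11.05 to 11.39 in the 4 Cdh1F/F;Trps1F/F organoid libraries and 9.45 to 10.04 in the 4 Cdh1+/F;Trps1F/F libraries, against 13.51 to 13.96 in the 4 Trps1+/+ libraries. Cdh1 mRNA did not follow the number of floxed Cdh1 alleles, with means at day 14 of 13.59 in Cdh1F/F;Trps1F/F and 13.51 in Cdh1+/F;Trps1F/F, against 13.08 in Trps1+/+, and at day 28 of 13.88 and 13.10, against 13.47. In tumors Trps1 ranged from 9.90 to 12.63 in Trps1F/F and from 11.46 to 12.94 in Trps1+/+, so the genotypes overlapped, and the 2 tumors of subgroup 3 had 11.91 and 12.63. HC11 cells with sgTrps1 averaged 13.88 ± 0.04, against 13.84 ± 0.07 with sgScr (SD, n = 2 each), a level of mRNA that need not follow the protein after genome cutting. The 10 luminal epithelial markers together reached 43694 to 103669 normalized counts in organoid libraries, and none of them was without reads there. At day 14 these markers reached 99253 to 101715 in Cdh1F/F;Trps1F/F and 74765.5 to 80208 in Cdh1+/F;Trps1F/F, against 58989.5 to 69096 in Trps1+/+. At day 28 the sums were 102266 to 103669 and 43694 to 48799, against 61495 to 66253. They reached 2052 to 131268 in tumors.

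The 5 casein genes lie together on chromosome 5 of GRCm38, in 266.458 kb between positions 87666208 and 87932665. Along the chromosome they follow as Csn1s1, Csn2, Csn1s2a, Csn1s2b and Csn3, all on the plus strand except Csn2. The gaps between neighbours are 10.045, 74.936, 19.284 and 101.152 kb in that order. Lalba is at chr15:98480400-98482721 and Wap at chr11:6635482-6638637, both on the minus strand. Csn3 overlaps 1700066N21Rik, annotated on the opposite strand, and the counting is not stated to use strand. That partner had no reads in the 6 TSA and DMSO libraries and reached a log2 value of at most 1.02 in tumors, and it has no row in the organoid table, so its part in organoid Csn3 reads was not tested.

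RefSeq promoter windows, from 250 bases before to 50 after the transcript start, were given for 5 of the 7 genes in build GRCm38.p6: Csn1s1, Csn1s2a, Csn2, Lalba and Wap. The Csn1s1, Csn2, Lalba and Wap windows are shown because Csn1s1 and Csn2, neighbours in the cluster, moved in opposite directions in the organoids below, while Lalba fell with Csn1s1 and the mean of Wap was lower in Trps1F/F on each day. Capitals mark each match to TTCNNNGAA, the palindromic core bound by Stat5. Both strands were searched for it and for AGATAA, a sequence that GATA factors bind, and the searches had no overlapping matches.
Csn1s1 (chr5:87665958-87666257, plus strand): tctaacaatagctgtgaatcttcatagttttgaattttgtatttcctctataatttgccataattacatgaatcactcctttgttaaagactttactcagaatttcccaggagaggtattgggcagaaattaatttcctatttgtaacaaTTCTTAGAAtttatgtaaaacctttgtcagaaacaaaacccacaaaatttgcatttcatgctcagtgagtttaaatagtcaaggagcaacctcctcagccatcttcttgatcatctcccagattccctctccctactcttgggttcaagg
Csn2 (chr5:87699376-87699675, minus strand): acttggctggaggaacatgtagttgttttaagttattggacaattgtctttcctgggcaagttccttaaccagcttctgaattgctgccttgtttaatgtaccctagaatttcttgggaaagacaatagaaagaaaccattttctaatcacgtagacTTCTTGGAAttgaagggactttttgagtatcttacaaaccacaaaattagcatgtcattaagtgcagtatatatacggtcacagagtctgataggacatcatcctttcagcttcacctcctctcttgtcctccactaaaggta
Lalba (chr15:98482634-98482933, minus strand): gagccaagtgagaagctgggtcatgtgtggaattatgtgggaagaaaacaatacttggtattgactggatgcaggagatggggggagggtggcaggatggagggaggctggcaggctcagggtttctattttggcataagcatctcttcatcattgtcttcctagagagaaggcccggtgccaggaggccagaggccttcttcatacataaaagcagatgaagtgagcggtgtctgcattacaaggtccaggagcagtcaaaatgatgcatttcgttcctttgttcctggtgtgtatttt
Wap (chr11:6638600-6638899, minus strand): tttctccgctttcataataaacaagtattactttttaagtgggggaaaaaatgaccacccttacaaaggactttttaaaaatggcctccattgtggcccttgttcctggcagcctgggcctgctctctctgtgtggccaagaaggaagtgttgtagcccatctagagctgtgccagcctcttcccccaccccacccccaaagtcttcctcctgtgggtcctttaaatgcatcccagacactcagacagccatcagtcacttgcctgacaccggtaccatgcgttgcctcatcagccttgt

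The Stat5 core occurred once each in the windows of Csn1s1 (bases -100 to -92 from the start), Csn2 (bases -93 to -85) and Csn1s2a (bases 21 to 29), and in neither of the Lalba and Wap windows. The Csn1s2a window ends at 87774499, and in the GENCODE M21 annotation this gene starts later, at 87774567. Its match is therefore inside the transcript by the RefSeq start only, and upstream by the other. Csn2, on the minus strand, reaches to 87699630 in GENCODE M21, which lies within its window. Its match is therefore upstream by the RefSeq start only, and inside the gene by the outer bound of the other. Of all 32851 windows of this length, 8.3% held the Stat5 core. AGATAA was in none of the 5 windows and in 11.2% of all windows. These are matches of letters only.

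In organoids the milk protein genes did not move as 1 group. In both Trps1F/F genotypes, Lalba and Csn1s1 were lower and Csn2 was higher on both days, while Csn3 fell in Cdh1F/F;Trps1F/F at day 14 and rose in the other 3 comparisons with the Trps1 wild type. All 7 genes passed the filter on low values, which asked for a normalized count of at least 9 in at least 2 of the 12 libraries. Wap passed through Trps1+/+ libraries alone and Csn1s2b through Cdh1+/F;Trps1F/F libraries alone, so for these a difference from the other groups was built in, and their calls below are descriptions with no weight as tests. Values below are log2(normalized count + 1) unless stated. A gene was called changed at a limma p under 0.05 after Benjamini-Hochberg adjustment over 15860 genes, and a log2 difference gives the first-named group minus the second.

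Between Cdh1F/F;Trps1F/F and Cdh1F/F;Trps1+/+ at day 14, 3 genes fell (Csn1s1, Csn3 and Lalba), 1 rose (Csn2) and Wap was lower too, in a comparison where 32.4% of all genes were called. The median log2 difference was -1.59 over the 7 genes and -0.01 over all genes. The 7 include Wap, whose difference the filter built in, so this median is a description. At day 28, 2 fell (Csn1s1 and Lalba) and 2 rose (Csn2 and Csn3), with 43.2% of all genes called. The median was then 0.03 over the 7 genes, again with Wap among them. Between Cdh1+/F;Trps1F/F and Cdh1F/F;Trps1+/+ at day 14, Csn3 and Csn2 rose and Csn1s1 and Lalba fell, with 36.3% of all genes called, and Wap was lower. At day 28 the same 4 genes moved the same way, with 53.3% of all genes called, Wap was again lower and Csn1s2b was higher. Both genotypes are set against the same Trps1+/+ libraries, so the 2 sets of differences are not independent.

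**Figure D1:**
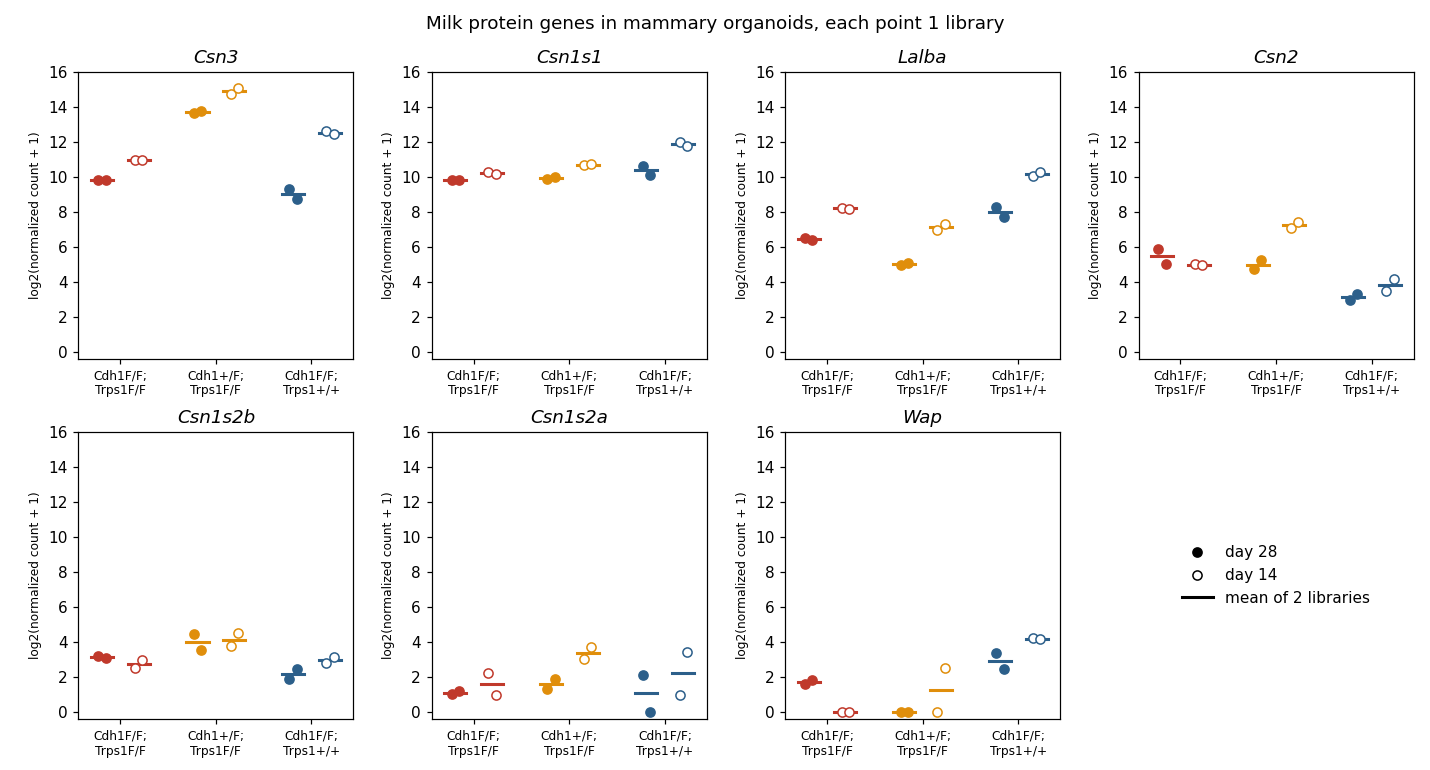
Log2(normalized count + 1) of the 7 milk protein genes in mammary organoids, with 1 panel per gene, 1 point per library, filled points for day 28 and open points for day 14, and a bar at the mean of 2 libraries. Csn3 spans 8.73 to 15.10 with both Cdh1+/F;Trps1F/F days on top, Lalba is highest in Trps1+/+ at day 14, and Wap is at 0 in 5 Trps1F/F libraries.

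Csn3, the gene of the micelle cap, spanned several log2 units between genotypes. At day 14 it stood at 10.94 in both Cdh1F/F;Trps1F/F libraries and at 14.74 and 15.10 in Cdh1+/F;Trps1F/F libraries, against 12.60 and 12.46 in Trps1+/+ libraries. At day 28 the values were 9.79 and 9.80 in Cdh1F/F;Trps1F/F and 13.66 and 13.79 in Cdh1+/F;Trps1F/F, against 9.30 and 8.73 in Trps1+/+. The groups did not overlap on either day, and Cdh1F/F;Trps1F/F changed sides: below Trps1+/+ at day 14 and above it at day 28. The log2 difference between these was -1.59 (SE 0.15, limma adjusted p = 6.79e-06) at day 14 and 0.78 (SE 0.15, adjusted p = 0.00119) at day 28. For Cdh1+/F;Trps1F/F over Trps1+/+ it was 2.39 (SE 0.15, adjusted p = 1.24e-07) at day 14 and 4.71 (SE 0.15, adjusted p = 2.71e-10) at day 28. The change of the genotype difference from day 14 to day 28 was itself called, at 2.37 for Cdh1F/F;Trps1F/F (SE 0.22, adjusted p = 0.000104) and 2.32 for Cdh1+/F;Trps1F/F (SE 0.22, adjusted p = 1.18e-05).

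Fibroblast markers had the order of Csn3 at day 14 and not at day 28, when they were lower and Csn3 higher in Cdh1F/F;Trps1F/F than in Trps1+/+. The 7 fibroblast markers together reached 649518 to 736802 normalized counts in Cdh1+/F;Trps1F/F libraries at day 14, 21069 to 21649 in Cdh1F/F;Trps1F/F and 89074 to 96535 in Trps1+/+. At day 28 they reached 353314 to 422647, 8097 to 9249 and 25335 to 38715 in the same order of genotypes. The 7 skeletal muscle markers at day 28 reached 34327 to 45336, 641 to 1083 and 4900 to 7157 in that order. No marker of either list was without reads in an organoid group. The 7 basal epithelial markers reached 31082 to 49589, 84601 to 116456 and 73819 to 80758 over both days in that order, a sum that its members did not share: in Cdh1+/F;Trps1F/F over Trps1+/+, 3 rose on each day while 3 fell at day 14 and 4 at day 28. In the other Trps1F/F genotype 2 rose and 2 fell at day 14, and 1 rose and 3 fell at day 28. The part of these cells in the Csn3 differences was not tested. In such bulk libraries, fewer cells of a type and less RNA per cell cannot be told apart.

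Csn1s1, which encodes alpha-S1-casein, was lower in Trps1F/F throughout. At day 14 it stood at 10.26 and 10.18 in Cdh1F/F;Trps1F/F and 10.67 and 10.71 in Cdh1+/F;Trps1F/F libraries, against 12.01 and 11.77 in Trps1+/+ libraries. No libraries of the 3 genotypes overlapped, and the log2 differences from Trps1+/+ were -1.67 (SE 0.14, limma adjusted p = 2.78e-06) and -1.20 (SE 0.14, adjusted p = 2.99e-05). At day 28 it stood at 9.83 and 9.80 in Cdh1F/F;Trps1F/F and 9.86 and 10.02 in Cdh1+/F;Trps1F/F, against 10.65 and 10.08 in Trps1+/+. The gap was narrower there, at -0.55 (SE 0.14, adjusted p = 0.00819) and -0.43 (SE 0.14, adjusted p = 0.0243). Both day 28 calls were lost without the Trps1+/+ library at 10.65, which left differences of -0.26 and -0.14. They were also lost in a fit of only the groups compared, and the second also without the Trps1F/F library at 9.86 (-0.35).

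Lalba, of the lactose synthase, fell in each of the same comparisons. At day 14 its values were 8.24 and 8.15 in Cdh1F/F;Trps1F/F and 6.93 and 7.31 in Cdh1+/F;Trps1F/F, against 10.07 and 10.26 in Trps1+/+. At day 28 they were 6.49 and 6.37, then 4.96 and 5.08, against 8.27 and 7.68 in Trps1+/+. The 3 genotypes kept the same order without overlap on both days. The log2 differences were -1.97 (SE 0.20, limma adjusted p = 8.65e-06) and -1.54 (SE 0.20, adjusted p = 4.11e-05) for Cdh1F/F;Trps1F/F at day 14 and day 28. For the other Trps1F/F genotype they were -3.04 (SE 0.20, adjusted p = 1.29e-07) and -2.95 (SE 0.20, adjusted p = 7.68e-08).

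Csn2, which encodes beta-casein, went the other way at low levels. At day 14 it stood at 5.002 and 4.96 in Cdh1F/F;Trps1F/F and 7.06 and 7.42 in Cdh1+/F;Trps1F/F, against 3.45 and 4.16 in Trps1+/+. At day 28 it stood at 5.88 and 5.02, then 4.73 and 5.23, against 2.96 and 3.29 in Trps1+/+. Every Trps1F/F library was above both Trps1+/+ libraries of its day. For Cdh1+/F;Trps1F/F the log2 difference was 3.43 (SE 0.36, limma adjusted p = 9.04e-06) at day 14 and 1.85 (SE 0.36, adjusted p = 0.000786) at day 28. For Cdh1F/F;Trps1F/F it was 2.33 (SE 0.36, adjusted p = 0.000202) at day 28 and 1.17 (SE 0.36, adjusted p = 0.0239) at day 14. The last call was lost with voom, without the filter and without 1 of 3 libraries (either Trps1F/F library, at 1.15 and 1.19, or the Trps1+/+ library at 3.45, at 0.82).

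**Figure D2:**
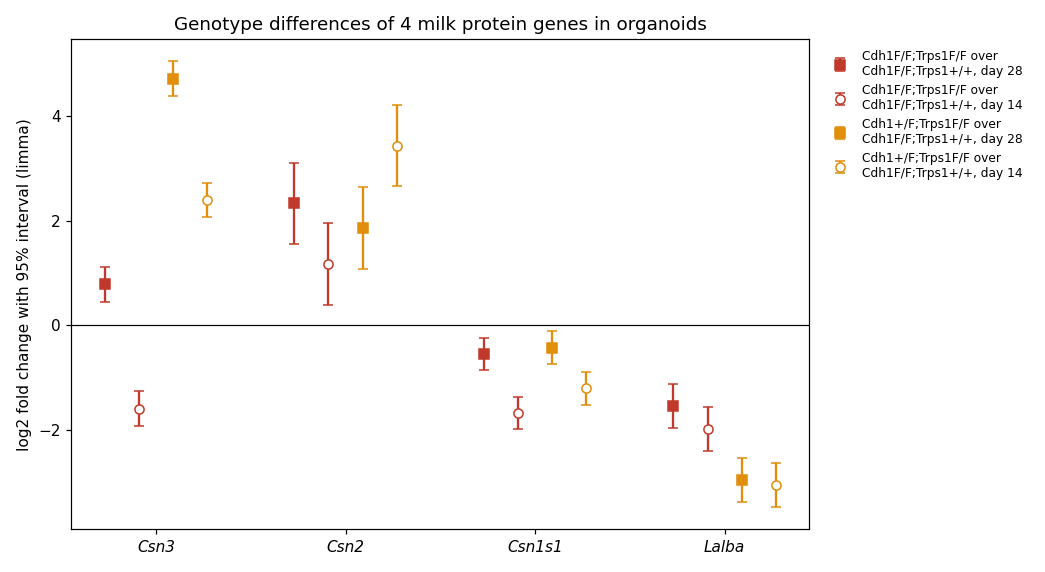
Log2 fold change over Cdh1F/F;Trps1+/+ organoids (y axis) of 4 milk protein genes (x axis), for Cdh1F/F;Trps1F/F in red and Cdh1+/F;Trps1F/F in orange, with squares for day 28 and circles for day 14 and 95% intervals from limma. Csn2 is above 0 and Csn1s1 and Lalba are below 0 in each comparison, and Csn3 runs from -1.59 to 4.71.

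Wap had few reads. At day 14 it had no reads in both Cdh1F/F;Trps1F/F libraries and was at 0 and 2.54 in Cdh1+/F;Trps1F/F libraries, against 4.24 and 4.16 in Trps1+/+. With 0 reads in 2 libraries against 37, its level was at least 12.1-fold lower in Cdh1F/F;Trps1F/F, taking 3 counts over the group as the floor. At day 28 it was at 1.62 and 1.82 in Cdh1F/F;Trps1F/F, while both Cdh1+/F;Trps1F/F libraries were at 0, against 3.39 and 2.43 in Trps1+/+. With 0 reads against 19 it was at least 4.33-fold lower in Cdh1+/F;Trps1F/F. Of the Wap calls, which the filter favours, those in Cdh1+/F;Trps1F/F were lost without the Trps1+/+ library at 4.24 (day 14) or at 3.39 (day 28), and at day 14 also without the Trps1F/F library at 0, all with Wap still lower.

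Csn1s2b, a gene of the alpha-S2-casein type, stood at 4.46 and 3.55 in Cdh1+/F;Trps1F/F at day 28, against 1.89 and 2.43 in Trps1+/+, a log2 difference of 1.84, or 1.38 without the library at 4.46. The filter admitted the gene through this genotype, so that the difference is a description. Its values at day 14 were 3.75 and 4.50 in Cdh1+/F;Trps1F/F, against 2.80 and 3.17 in Trps1+/+. In Cdh1F/F;Trps1F/F it ranged from 2.51 to 3.21. Csn1s2a, the other gene of that type, ranged from 0 to 3.70 over the 12 libraries and was called in none of the 9 comparisons of genotypes or days.

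The 2 Trps1F/F genotypes differed from each other as well. At day 14, Csn3, Csn2 and Csn1s1 were lower and Lalba was higher in Cdh1F/F;Trps1F/F than in Cdh1+/F;Trps1F/F. With Csn1s2b, whose difference the filter favours, 5 of 7 genes were called against 40.6% of all genes. Csn3 differed by -3.98 (SE 0.15, limma adjusted p = 1.21e-09), Csn2 by -2.26 (SE 0.36, adjusted p = 0.000227) and Lalba by 1.07 (SE 0.20, adjusted p = 0.000698). The Csn1s1 and Csn1s2b differences, -0.47 and -1.39, were smaller. That of Csn1s1 was lost without any 1 of the 4 libraries (-0.51 to -0.43), and that of Csn1s2b without the filter, with quantile normalization (-0.68) and without either Cdh1F/F;Trps1F/F library (-1.16 and -1.61) or the Cdh1+/F;Trps1F/F library at 4.50 (-1.01). At day 28 the count was 2 of 7 against 56.7% of all genes, with Csn3 at -3.93 (SE 0.15, adjusted p = 4.09e-10) and Lalba at 1.41 (SE 0.20, adjusted p = 4.09e-05). The day 28 difference of Csn1s1 was -0.12, with a 95% interval of -0.43 to 0.19. For Csn2 it was 0.47, with an interval of -0.30 to 1.25.

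Csn3, Lalba and Csn1s1 mRNA was lower at day 28 than at day 14 in every genotype, and no member of the set was called higher. In Cdh1F/F;Trps1F/F 3 genes fell (35.4% of all genes were called), in Cdh1+/F;Trps1F/F 4 (40.8%) and in Trps1+/+ 3 (25.9%). The fourth gene was Csn2. In the same order of genotypes, the log2 difference of Csn3 between day 28 and day 14 was -1.15, -1.20 and -3.52 (limma adjusted p = 0.000183, 0.000125 and 3.45e-08). That of Lalba was -1.76, -2.10 and -2.19, and the gap between the first and the last was within its error (0.43, 95% interval -0.17 to 1.03). That of Csn1s1 was -0.40, -0.75 and -1.53 (adjusted p = 0.0447, 0.00154 and 9.12e-06). The first of these calls was lost with voom, without the filter, with quantile normalization and without any 1 of the 4 libraries (-0.44 to -0.36). Csn2 fell by 2.26 in Cdh1+/F;Trps1F/F (SE 0.36, adjusted p = 0.00047). In Cdh1F/F;Trps1F/F it moved by 0.47 (95% interval -0.31 to 1.25).

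Of the 7 genes, 2 differed in their course over time between Cdh1F/F;Trps1F/F and Trps1+/+ (Csn3 and Csn1s1), against 17.9% of all genes. Between Cdh1+/F;Trps1F/F and Trps1+/+, 3 did (Csn3, Csn1s1 and Csn2), against 33.9% of all genes. For Csn1s1 the genotype difference rose by 1.13 (SE 0.20, limma adjusted p = 0.00362) and by 0.78 (SE 0.20, adjusted p = 0.011) between the days. For Csn2 it fell by 1.58 (SE 0.51, adjusted p = 0.0301) in Cdh1+/F;Trps1F/F, a call that was lost with voom, without the filter and without any 1 of 5 libraries (-1.75 to -1.22). Csn1s1 in Cdh1+/F;Trps1F/F was no longer called without the Trps1+/+ day 14 library at 12.01, at 0.66. The 5 macrophage markers together had 277 to 365 normalized counts at day 28, against 624.5 to 742.8 at day 14, in Cdh1F/F;Trps1F/F. They had 1377 to 1654 against 4317 to 4405 in Cdh1+/F;Trps1F/F, and 778 to 800 against 2144 to 2187 in Trps1+/+. Their part in the result was not tested.

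Counted as a share of all reads (RPM, the read count scaled to library depth, without length), the 7 genes together took 89.4 and 93.1 RPM in Cdh1F/F;Trps1F/F organoids at day 28, 625.2 and 691.6 in Cdh1+/F;Trps1F/F, and 86.0 and 125 in Trps1+/+. At day 14 they took 164 and 167, 1340 and 1698, and 498 and 545 RPM in the same order. What made up these reads differed: Csn3 gave 92.7% to 94.5% of them in the 4 Cdh1+/F;Trps1F/F libraries, 45.4% to 57.1% in the 4 Cdh1F/F;Trps1F/F libraries and, in Trps1+/+, 54.1% and 54.2% at day 14 but 24.5% in both libraries at day 28. Per kilobase of its principal transcript, Csn3 was first of the 7 in 4 of 6 groups, with means from 58.4 RPKM in Cdh1F/F;Trps1F/F to 895 in Cdh1+/F;Trps1F/F at day 14. Csn1s1 was first in the other 2, at 30.2 RPKM against 26.3 for Csn3 in Cdh1F/F;Trps1F/F at day 28, and at 46.8 against 16.2 for Csn3 in Trps1+/+ at day 28. Lalba was the next in Trps1+/+ at day 28, at 16.3 RPKM, a level whose libraries overlap those of Csn3, and came after both in the other 5 groups. Csn2, Csn1s2b, Csn1s2a and Wap stayed under 6 RPKM in every library.

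**Figure D3:**
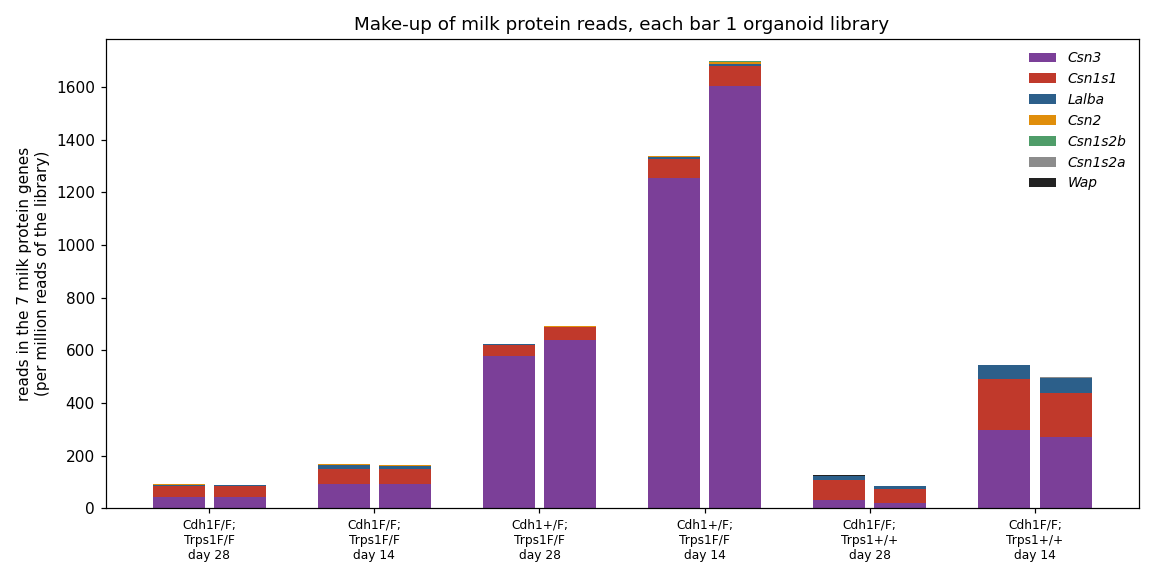
Level of the 7 milk protein genes in RPM (y axis, from 0), with 1 bar per organoid library, grouped by genotype and day and coloured by gene. Cdh1+/F;Trps1F/F bars are mostly Csn3, reaching 1698 RPM at day 14, and Trps1+/+ bars at day 28 hold 24.5% Csn3.

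The control pathway was described by 21 genes of prolactin, Stat5 and glucocorticoid signalling, all of which passed the filter in organoids. Over all genes, the shares called against Trps1+/+ were 32.4% at day 14 and 43.2% at day 28 in Cdh1F/F;Trps1F/F. In Cdh1+/F;Trps1F/F they were 36.3% and 53.3%. In Cdh1F/F;Trps1F/F over Trps1+/+ at day 14, 4 rose and 7 fell, with a median log2 difference of -0.01. Cish and Socs2, feedback inhibitors that Stat5 induces, rose by 0.97 (SE 0.14, limma adjusted p = 0.0002) and 0.81 (SE 0.13, adjusted p = 0.000423). Nr3c1, the glucocorticoid receptor gene, fell by 0.69 (SE 0.08, adjusted p = 2.28e-05), and Jak2, the kinase of the prolactin receptor, fell by 0.65 (SE 0.10, adjusted p = 0.000251). Erbb4, a receptor that activates Stat5, rose by 2.05 (SE 0.25, adjusted p = 4.93e-05). At day 28, 6 rose and 6 fell, among them Socs2 at 1.29 and Nr3c1 at -0.63. In Cdh1+/F;Trps1F/F over Trps1+/+ at day 14, 4 rose and 9 fell, and Prlr, the prolactin receptor gene, fell by 1.12 (SE 0.14, adjusted p = 5.04e-05) where Cish rose by 1.12. At day 28, 5 rose and 6 fell, with Gata3, a luminal transcription factor gene, at -1.15 and Stat5a at -0.55. Between the 2 Trps1F/F genotypes, Stat5a was higher in Cdh1F/F;Trps1F/F by 0.62 (SE 0.08, adjusted p = 2.88e-05) at day 14 and 0.58 (SE 0.08, adjusted p = 2.68e-05) at day 28.

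Other genes of milk and of secretion split in the same comparisons. Of 26 such genes, 24 passed the filter. Of all genes, 32.4% were called at day 14 and 43.2% at day 28 in Cdh1F/F;Trps1F/F, and 36.3% and 53.3% in Cdh1+/F;Trps1F/F. In Cdh1F/F;Trps1F/F over Trps1+/+, 7 rose and 7 fell at day 14 and 9 rose and 7 fell at day 28. Ltf, which encodes the milk iron binder lactoferrin, rose by 2.00 (SE 0.15, limma adjusted p = 6.95e-07) and 3.56 (SE 0.15, adjusted p = 6.71e-09), and Spp1, which encodes osteopontin, differed by -1.70 and -2.10. In Cdh1+/F;Trps1F/F, 11 rose and 5 fell at day 14 and 12 rose and 6 fell at day 28. There Btn1a1, which encodes butyrophilin of the milk fat globule, rose by 2.26 (SE 0.18, adjusted p = 7.13e-07) at day 14, and Xdh, its partner in the globule membrane, rose by 1.59 (SE 0.09, adjusted p = 1.2e-08) at day 28. Spp1 differed by -2.87 and -3.30 on the 2 days, and Trf, which encodes transferrin, by -2.71 and -3.16. Lpl, a lipase that adipocytes also make, rose by 3.10 at day 28. The 4 adipocyte markers then reached 2437 to 2807 normalized counts, against 665 to 1388 in Trps1+/+. Their part in that result was not tested.

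Within the casein cluster, Odam, an ameloblast gene at chr5:87885029-87894174 between Csn1s2b and Csn3, was higher in Trps1F/F in each comparison. At day 28 its mean was 5.50 in Cdh1F/F;Trps1F/F and 7.53 in Cdh1+/F;Trps1F/F, against 2.15 in Trps1+/+, and at day 14 it was 4.72 and 7.04, against 1.46. Odam passed the filter through Trps1F/F libraries alone, so its difference from Trps1+/+ was built in and has no test. Odam in Trps1+/+ rests on 9 reads at day 28 and 4 reads at day 14. Prol1, further along the same chromosome at chr5:88317312-88328814, averaged 6.04 in Cdh1F/F;Trps1F/F and 4.72 in Cdh1+/F;Trps1F/F at day 28, against 0.46 in Trps1+/+, which had 1 read in 2 libraries. At day 14 it averaged 4.11 and 3.46, against 4.11 in Trps1+/+, and was not called in either genotype. Of 10 listed neighbours of the cluster with a row in the organoid table, 5 passed the filter. For a likeness, each of the 7 milk protein genes was scaled to the same mean and spread over the 12 organoid libraries, then averaged. Genes near the floor thus weighed as much as Csn3, and some pairs of the 7 correlated negatively. The log2 values that ran most alike to this average were those of Fcna (Pearson r = 0.93), Cd209g (0.92), Ccl4 (0.91), Mcpt8 (0.90) and Ms4a6d (0.90). This is a description over libraries that share 6 groups and 1 normalization.

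In tumors the milk protein genes separated single tumors more than genotypes. Csn3 ranged from 3.76 to 14.23 over the 8 Trps1F/F tumors with a median of 9.78, and stood at 10.28, 3.28 and 2.42 in the 3 Trps1+/+ tumors. With tumors of a mouse averaged, 6 Trps1F/F mice had a mean of 9.25 ± 3.52 and 3 Trps1+/+ mice 5.33 ± 4.31 (SD). The log2 difference of 3.93 was within that spread (95% interval -1.32 to 9.18, limma adjusted p = 0.80). Of 15423 genes tested, 0% were called in this comparison. At an unadjusted p under 0.05 the count was 805 genes and 0 milk protein genes, and voom on the recovered reads called 0%. Wap and Csn1s2b did not pass the filter in tumors, which asked for 3 tumors, and the other 5 genes did.

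Subgroup 1 of the Trps1F/F tumors held the high values. Its 4 tumors had Csn3 at 14.23 (mouse 17LCO103), 12.39 (18LCO003), 12.21 and 11.01 (18LCO025). The 2 tumors of subgroup 2 had 8.55 and 6.38 and the 2 of subgroup 3 had 3.76 and 4.96, against 10.28, 3.28 and 2.42 in Trps1+/+. All 4 values of subgroup 1 lie above the other 7, and within mouse 18LCO025 its subgroup 3 tumor was at 3.76. Between subgroup 1 and Trps1+/+, with tumors averaged per mouse, Csn3 was the 1 gene called of the 5 kept, against 15.8% of all genes (log2 difference 7.42, SE 1.87, limma adjusted p = 0.0315). In the authors' deposited table the same groups have a log2 fold change of 4.23 for Csn3 with an adjusted p of 0.0258. That value comes from another method. It matches the log2 ratio of mean normalized counts over single tumors, so both subgroup 1 tumors of 18LCO025 entered as separate samples. Its adjusted p thus takes tumors of 1 mouse as independent, and it and 7.42 are not the same measure. The limma call was lost without any 1 of 5 mice, with a difference of 5.96 (without 18LCO128) to 7.98 (without 18LCO025). It held only without Trps1+/+ mouse 18LCO046. If the subgroups were drawn from expression, this comparison is no independent test.

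The other caseins were high in some subgroup 1 tumors and in 1 Trps1+/+ tumor. Csn2 was at 13.14 in the tumor of 17LCO103 and at 9.37 and 11.50 in those of 18LCO025, but at 1.54 in that of 18LCO003. In Trps1+/+ it was at 9.14 in 18LCO046 and at 0 in the other 2. Csn1s1 was at 12.66 in 17LCO103, 2.30 and 11.65 in 18LCO025 and 3.40 in 18LCO003, against 10.23, 0 and 0 in Trps1+/+. So of the 2 subgroup 1 tumors of 1 mouse, one was low and one high in Csn1s1, while both were high in Csn2 and Csn3. Csn1s2a, near the floor in organoids, was at 11.82 in 17LCO103, 5.26 and 9.95 in 18LCO025 and 0 in 18LCO003, against 6.91, 0.98 and 0 in Trps1+/+. The means of subgroup 1 and Trps1+/+ differed by less than the spread for these (limma adjusted p = 0.296 for Csn2, 0.37 for Csn1s1 and 0.392 for Csn1s2a). Outside subgroup 1 and 18LCO046, no tumor exceeded 4.22 for any casein other than Csn3.

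The whey protein genes had few or no reads in most tumors. Lalba reached 8.31 in 17LCO103 and 6.64 in 1 tumor of 18LCO025, and was between 0 and 2.29 in the other 6 Trps1F/F tumors, against 5.89, 2.55 and 2.09 in Trps1+/+. Its genotype and subgroup 1 differences did not pass (limma adjusted p = 0.927 and 0.837). Wap had reads in 3 of 11 tumors: 5.68 in 17LCO103, 1.53 in 1 subgroup 1 tumor of 18LCO025 and 2.44 in Trps1+/+ mouse 18LCO046. Csn1s2b was at most 2.02. Per kilobase, the tumor of 17LCO103 had 644 RPKM of Csn3, 364 of Csn2, 245 of Csn1s1, 210 of Csn1s2a, 22.0 of Lalba and 4.86 of Wap.

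**Figure D4:**
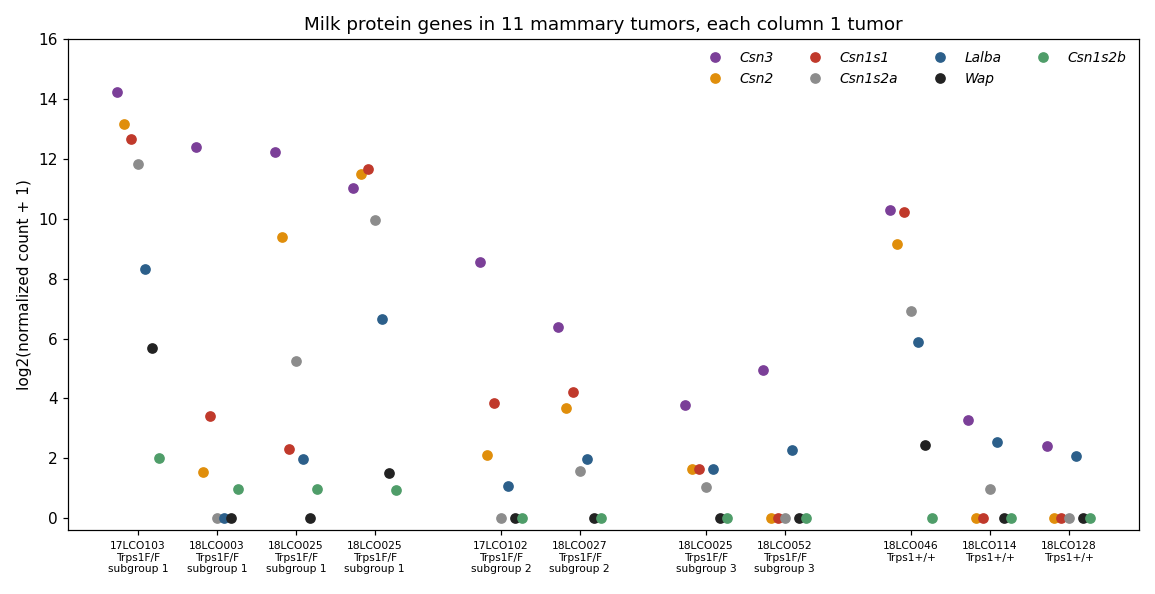
Log2(normalized count + 1) of the 7 milk protein genes (y axis) in 11 mammary tumors, with 1 column per tumor and 1 coloured point per gene, labelled with mouse, Trps1 genotype and subgroup. The 4 subgroup 1 tumors have Csn3 at 11.01 to 14.23, and of the Trps1+/+ tumors 18LCO046 stands apart at 10.28.

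Luminal markers, but not all epithelial lists, were high in the 4 subgroup 1 tumors. They reached 77109 to 131268 normalized counts together, against 10550 to 29515 in Trps1+/+, and 7 of 10 rose (0 fell). Over all genes, 15.8% were called between subgroup 1 and Trps1+/+, and these counts are no independent test if expression drew the subgroups. The 7 basal markers reached 10282 to 48635, against 3360 to 11185 in Trps1+/+, ranges that overlap, and 1 of them rose. The 6 hormone-sensing luminal markers reached 2266 to 3766, below the 3989 to 5434 of the Trps1+/+ tumors, and 1 of them rose. Cdh1, which carries floxed alleles in all these mice, was at 12.75 to 13.74 in subgroup 1, at 6.49 to 10.30 in subgroups 2 and 3 and at 7.02 to 10.64 in Trps1+/+. Elf5, a transcription factor gene of milk-secreting luminal cells, belongs to both the control and the luminal list. It was at 10.79 to 11.90 in subgroup 1, at 1.04 to 3.32 in subgroups 2 and 3 and at 7.19, 0.98 and 0 in Trps1+/+. Of the 20 control genes kept, 3 rose and 5 fell, and of 22 other milk and secretory genes 8 rose and 1 fell. The Trps1+/+ tumor with the most milk protein reads, 18LCO046, had the highest Elf5, Cdh1 and luminal sum of its genotype. Its basal, endothelial and adipocyte sums were also the highest of its genotype, and its fibroblast sum, 1.10e+06, was the highest of all tumors. The part of epithelial content in the Csn3 difference was not tested.

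Subgroups 2 and 3 held few milk protein reads. In subgroup 2 the 7 genes took 16.7 and 5.86 RPM and in subgroup 3 they took 0.953 and 1.79, where subgroup 1 had 268 to 2070, against 148, 0.701 and 0.354 in Trps1+/+. Against Trps1+/+, 0% of genes were called in either subgroup, with 2071 genes for subgroup 2 and 940 for subgroup 3 at an unadjusted limma p under 0.05, among them 0 milk protein genes, and voom called 0%. Over the 11 tumors, the 5 kept genes were averaged after each was scaled to the same mean and spread. Pinc, a noncoding RNA gene of the mammary gland, ran most alike to that average (Pearson r = 0.96). It was followed by Cdo1 (0.94), Slc35f3 (0.93), Hepacam2 (0.93) and Igkv1-135 (0.92). This description rests on the few tumors with high values.

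HC11 cells, which are known to make beta-casein after lactogenic hormones, expressed the set at or near 0, and the labels name no such hormones. In the TSA experiment the 7 genes had 2, 4 and 2 reads in the TSA libraries and 2, 0 and 2 in the DMSO libraries. Of these, Csn2 had 1 or 2 reads in each TSA library and 1 in 1 DMSO library, and Csn3 had at most 3 in any library. Wap, Csn1s2a and Csn1s2b had none, which allows up to 0.117 to 0.169 RPM in the 6 libraries. Csn1s1, Csn1s2a, Csn2 and Wap had no reads in the sgTrps1 and sgScr libraries, which allows up to 0.0775 to 0.141 RPM. No member passed the filter, so none was tested, while 85.2% of all genes were called between TSA and DMSO and 67.0% between sgTrps1 and sgScr. These limits cover counting error only, since reads carried no molecular identifiers. A difference of the milk protein genes was not detectable at this depth in HC11 cells.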

How the data were processed

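The authors' deposited tables hold log2 values of normalized counts from RNA-seq, 1 table per experiment. TopHat, HTSeq and build GRCm38 are named, without versions, in the submitters' processing notes. Annotation and strand setting: not given in the sources used here. Values equal log2(normalized count + 1), with a whole read times 1 factor per library in 100% of values (tolerance 0.01 reads or a share of 1e-05). Levels are compared within a table, as tables were scaled separately. Symbols turned into dates (14 per table) and 1 row without a symbol in 2 tables were left out. The authors' deposited comparison tables give mean normalized counts as a signal, a test statistic as a score, log2 fold changes and p-values. From them only Csn3 in subgroup 1 is quoted.

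Tests on the log2 scale used limma 3.58.1 under R 4.3.3 (lmFit and eBayes, trend on) and were checked on simulated data. Organoids were fitted as 6 groups in 1 model. Tumors were averaged per mouse, within a subgroup for the subgroup tests, so mouse 18LCO025 enters 2 subgroups. RPKM uses the longest principal transcript of GENCODE M21. Of the 12 organoid columns, 8 share headers in pairs, so these replicates carry no number. No replicate pair agreed within sampling noise. Same-numbered HC11 libraries did not deviate together. Alternatives were a pseudocount of 8, no filter, quantile normalization, voom on recovered reads, leaving out libraries or mice, replicate blocks, smaller fits and each tumor as a replicate. Members and lists were chosen with earlier results of these data known.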

Additional observations from a re-analysis of the deposited data

Results flagged for a closer look

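Csn3 and Csn1s1 followed another course over time in Trps1F/F than in Trps1+/+ organoids. Tested as a change of the genotype difference between day 28 and day 14 with limma, it was 2.37 for Csn3 and 1.13 for Csn1s1 in Cdh1F/F;Trps1F/F against Cdh1F/F;Trps1+/+ organoids. In Cdh1+/F;Trps1F/F against Cdh1F/F;Trps1+/+ it was 2.32 for Csn3, 0.78 for Csn1s1 and -1.58 for Csn2. Over all genes, 17.9% were called in the first set and 33.9% in the second. The Csn2 call was lost with voom, without the filter and in fits without single libraries. That of Csn1s1 in Cdh1+/F;Trps1F/F was lost without the Trps1+/+ day 14 library at 12.01. Both sets share the Trps1+/+ libraries.

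Wap was at a log2 value of 5.68 in the Trps1F/F tumor of mouse 17LCO103, and at 0.51 or below in the other 5 Trps1F/F mice. Dixon's test at 95% flagged it (ratio 0.91 against a critical value of 0.625), among 7 such groups tested, 1 per gene. That test assumes normal values, but among these 5 mice only 18LCO025 had any Wap reads. Wap also did not pass the filter on low values in tumors. The usual error rate of about 1 in 20 therefore does not hold here, and the flag is a description only.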

How the results depend on the processing

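Of 502 recomputed fold changes, 454 kept their direction and their side of the threshold, 43 lost a call, 1 gained one and 4 turned round. All 4 are Lalba's change of genotype difference in Cdh1+/F;Trps1F/F, which was 0.09 and is not called. It was -0.23 with quantile normalization. Without 1 library it ran from -0.20 to 0.38, a range that also holds fits that kept the sign. The number of milk protein genes called became 4 with quantile normalization (Cdh1F/F;Trps1F/F over Cdh1+/F;Trps1F/F, day 28) and 2 without a filter (subgroup 1). Without 1 library or mouse it ran from 3 to 5 for the day 14 contrast of the 2 Trps1F/F genotypes, from 1 to 3 for the time course in Cdh1+/F;Trps1F/F, and from 0 to 1 for subgroup 1. A replicate block left 0 milk protein genes called in HC11, and called 84.2% (TSA) and 65.8% (guides) of all genes. With sgTrps1 1 paired to sgScr 2, chosen after seeing the data, it was 70.2%. Same-numbered guide libraries correlated at -0.19, and with 2 libraries per arm the crossed pairs are then fixed at 0.19. A block over the 4 Cdh1F/F;Trps1F/F libraries, also chosen afterwards, changed no call of a milk protein gene there. Without the filter, 27.3% rather than 43.2% of all genes were called for Cdh1F/F;Trps1F/F at day 28, and 38.7% rather than 67.0% for the guides, where more low genes were tested. Without 1 library or mouse the share ran from 6.62% to 21.7% for the change over time in Cdh1F/F;Trps1F/F and from 7.33% to 12.9% for subgroup 1, in fits with fewer samples.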
